A study of Mus musculus with 22 samples.

Results

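Pla2g4a, Ptgs2os, Ptgs2, Prg4 and Hmcn1 are neighbours on mouse chromosome 1 and were chosen by name, as genes already known to differ between the inbred strains DBA/2J (D2) and C57BL/6J (B6) on these arrays. They are 5 of the 16016 genes that had a gene value, and their 193 probesets with values are among 1190406 in the deposited table. The D2 group was 12 naive adult male DBA/2J mice and the B6 group 10 naive adult male C57BL/6J mice, with no transgene, treatment or induced mutation named for either. Each array held whole-brain total RNA of 1 mouse, read out on Affymetrix Mouse Exon 1.0 ST arrays, whose probes are grouped into probesets that each cover part of an exon. A gene value is the median, on the log2 scale, of the gene's probesets that passed a filter on dim signals at a log2 value of 1.44. The long noncoding RNA gene Ptgs2os stood in the array's annotation under its older symbol 7530420F21Rik.

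The first genes of the run belong to the eicosanoid pathway. Pla2g4a encodes cytosolic phospholipase A2 alpha, which releases arachidonic acid from membrane phospholipids. Ptgs2 encodes cyclooxygenase-2, which converts arachidonic acid to the prostaglandin H2 from which prostaglandins and thromboxane are made. In brain, cyclooxygenase-2 is made mainly by excitatory neurons, is switched on by synaptic activity and rises in inflammation and fever. Ptgs2os is transcribed from the opposite strand beside Ptgs2. The other members are matrix genes. Prg4 encodes lubricin, the mucin-like glycoprotein that lubricates joint surfaces, and Hmcn1 encodes hemicentin-1, a very large extracellular protein of the fibulin family that is found at basement membranes and cell junctions.

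The sequences before the transcript starts are shown for Ptgs2, whose strain difference was the largest of the 5, for the upstream start of Pla2g4a, which acts before it in the pathway, and for Hmcn1, the member with more signal in D2. They are RefSeq sequences of build GRCm38.p6, from the B6 reference, and run from 250 bases before the annotated start to 30 bases after it. The Ptgs2 window is chr1:150099781-150100060 on the plus strand, that of Pla2g4a chr1:149961261-149961540 on the minus strand and that of Hmcn1 chr1:150993406-150993685 on the minus strand. Capitals mark matches, on either strand, to motifs that were picked after the sequences had been seen.
Ptgs2: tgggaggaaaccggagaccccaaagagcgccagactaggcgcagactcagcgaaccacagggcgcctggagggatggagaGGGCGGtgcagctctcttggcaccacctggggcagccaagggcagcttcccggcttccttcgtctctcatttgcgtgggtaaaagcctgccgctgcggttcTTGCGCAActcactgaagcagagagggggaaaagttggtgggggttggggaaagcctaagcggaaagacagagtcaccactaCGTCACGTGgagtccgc
Pla2g4a: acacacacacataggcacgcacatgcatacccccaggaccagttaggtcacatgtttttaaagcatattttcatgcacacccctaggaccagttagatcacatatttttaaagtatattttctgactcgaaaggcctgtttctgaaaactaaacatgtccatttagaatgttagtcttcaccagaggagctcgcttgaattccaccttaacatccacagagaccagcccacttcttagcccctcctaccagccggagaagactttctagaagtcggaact
Hmcn1: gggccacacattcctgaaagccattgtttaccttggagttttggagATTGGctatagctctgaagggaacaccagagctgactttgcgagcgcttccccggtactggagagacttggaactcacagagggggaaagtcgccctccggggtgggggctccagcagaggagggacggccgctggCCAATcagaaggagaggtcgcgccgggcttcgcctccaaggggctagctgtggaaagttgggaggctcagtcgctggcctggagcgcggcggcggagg
In the Ptgs2 window the capitals are a GC box (GGGCGG), the palindrome TTGCGCAA of the C/EBP type at bases -69 to -62 before the start, and an overlapping pair after the start, TGACG on the minus strand at bases 14 to 18 and the E-box CACGTG at bases 17 to 22. Among 32851 promoters read over the same length, 34.7% held GGGCGG, 0.18% TTGCGCAA, 19.9% TGACG and 6.79% CACGTG. The start of Ptgs2os lies 157 bases from that of Ptgs2 on the opposite strand, with the transcripts pointing away from each other, so that the windows of both overlap and share these matches. In Hmcn1 the capitals are matches to CCAAT, which 36.1% of the promoters held. The Pla2g4a window shown held no match to these motifs, to TATAAA (13.1% of promoters), to TGANTCA (7.46%) or to the kappa-B consensus (7.94%), and a second annotated start of that gene had a match to TATAAA and one to CCAAT. A match is a description of letters in a reference sequence, and the D2 sequence was not analysed here.

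Ptgs2 gave the largest difference of the run, with less signal in D2 brains. Its gene values were 1.86, 2.59 and 2.97 (lowest, median and highest, log2) in the 12 D2 mice, against 3.66, 4.09 and 4.31 in the 10 B6 mice. Every D2 mouse lay below every B6 mouse, and the gap between the groups was wider than the SD of either. The means were 2.58 ± 0.33 in D2 (SD, n = 12) and 4.06 ± 0.21 in B6 (SD, n = 10), a difference of -1.48 ± 0.12 (log2, D2 minus B6, SE), or 2.79-fold less in D2. Among the 16016 genes it ranked 46 by the size of the difference. In whole brain, fewer cells of a type that makes a transcript and less of the transcript per cell cannot be told apart.

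The probesets of Ptgs2 differed in a common direction but by unequal amounts. All 16 had a lower mean in D2, including the 2 under the filter, and in 5 of the 14 that passed it every D2 mouse lay below every B6 mouse, as in 0.474% of all kept probesets with 1 symbol. The probeset with the largest difference (5573389) had a mean of 3.62 ± 0.76 in D2 and 5.59 ± 0.36 in B6, a difference of -1.97 ± 0.24 (SE). The exception in size was the brightest probeset (4345769), at 4.97 ± 0.40 in D2 and 5.15 ± 0.26 in B6, with a difference of -0.18 ± 0.15 (SE) and overlapping mice. Relative to the gene value on the same array, that probeset was 1.30 higher in D2. The other 13 kept probesets had differences of -0.84 or larger in size. Some of these passed the filter only through their B6 signal, such as 5267049 (1.02 in D2 and 2.49 in B6). The array was designed on B6 sequence, and a D2 variant under a probe would lower the D2 signal of that probeset, which was not tested here.

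Ptgs2os, the antisense neighbour, was also lower in D2, at levels near the filter. Its values were 1.13, 1.65 and 1.98 (lowest, median and highest) in D2 and 1.73, 2.32 and 2.64 in B6. The ranges overlapped, with 7 of the 12 D2 mice below the lowest B6 mouse. The means were 1.57 ± 0.28 in D2 and 2.26 ± 0.29 in B6 (SD), a difference of -0.69 ± 0.12 (SE), or 1.61-fold. Only 4 of its 10 probesets passed the filter. Of these, 5510446 was at 1.26 ± 0.53 in D2 and 2.41 ± 0.54 in B6, so that it passed the filter through its B6 signal, and 4605073 was at 1.56 ± 0.40 in D2 and 2.53 ± 0.80 in B6. The other kept probesets were 5567419 (-0.11 ± 0.31, SE) and 4371608, at 2.31 in both strains. With all 10 probesets and no filter the gene value differed by -0.43, against -0.69 with it.

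Pla2g4a had the smallest difference. Its values were 2.51, 3.02 and 3.42 in D2 mice and 2.61, 3.49 and 3.93 in B6 mice, and only 1 D2 mouse lay below the lowest B6 mouse. The means were 3.01 ± 0.27 in D2 and 3.46 ± 0.38 in B6 (SD), a difference of -0.45 ± 0.13 (SE), or 1.36-fold. All 13 kept probesets were lower in D2. None had every D2 mouse below every B6 mouse, a pattern of 0.474% of all kept probesets with 1 symbol, so nothing is read from that. The Pla2g4a difference lay in its dimmer probesets. The 5 probesets with means above the 75th percentile of the table (3.46 on the log2 scale) differed by -0.07 to -0.20, the brightest of them (4596345) with 5.78 ± 0.21 in D2 and 5.91 ± 0.17 in B6. The 8 between the filter and that level differed by -0.07 to -0.72. With the filter set at that percentile the gene value differed by -0.078 ± 0.080 (SE), so the size of the Pla2g4a difference rests on probesets of low signal. It was also smaller without the filter (-0.26), with the mean over probesets (-0.29) and with the array median as covariate (-0.21 ± 0.19, SE).

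Prg4, the lubricin gene, had less signal in D2. Its values were 1.91, 2.26 and 2.38 in D2 mice and 2.80, 3.26 and 3.73 in B6 mice, without overlap. The means were 2.22 ± 0.16 in D2 and 3.28 ± 0.25 in B6 (SD), a difference of -1.07 ± 0.09 (SE), or 2.09-fold, which ranked 89 among all genes. Of its 11 kept probesets 10 were lower in D2. In 2 of them every D2 mouse lay below every B6 mouse, as in 0.474% of all kept probesets with 1 symbol. The probeset 5558138 differed most, at 3.45 ± 0.74 in D2 and 5.24 ± 0.61 in B6. Against the others, 4980310 was at 3.32 ± 0.61 in D2 and 3.09 ± 0.21 in B6, a difference of 0.23 ± 0.19 (SE) with overlapping mice. The 2 Prg4 probesets above the 75th percentile were unlike in size. They were 5558138 (-1.79 ± 0.27, SE) and 4516970 (-0.32 ± 0.30, SE), the latter with overlapping mice. Some kept probesets passed the filter only through their B6 signal, such as 5603358 (1.33 in D2 and 2.46 in B6).

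Hmcn1 ran the other way, with more signal in D2. Its values were 2.81, 3.12 and 3.45 in D2 mice and 2.38, 2.49 and 2.68 in B6 mice, and every D2 mouse lay above every B6 mouse. The means were 3.11 ± 0.20 in D2 and 2.51 ± 0.10 in B6 (SD), a difference of 0.60 ± 0.08 (SE), or 1.52-fold, which ranked 414. The difference was small per probeset and spread over many probesets of this long gene. Of 97 kept probesets 96 were higher in D2, with a median difference of 0.56. In 0 of them did every D2 mouse lie above every B6 mouse. That pattern was held by 0.252% of all kept probesets with 1 symbol, so nothing is read from this 0. The most different Hmcn1 probeset (5066424) was at 4.68 ± 0.41 in D2 and 3.22 ± 0.70 in B6. The brightest one (4454170) was at 5.42 ± 0.24 in D2 and 5.11 ± 0.26 in B6. Among the 33 probesets under the filter, 25 were higher in D2. The filter used the mean over both strains, so some kept probesets passed it only through their D2 signal. Examples are 4601069 (1.97 in D2 and 1.25 in B6) and 4692744 (1.88 and 1.27). The count of 96 of 97 is in part set by this choice.

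All 5 members passed the threshold of the limma fit across genes (adjusted p under 0.05), as did 10.8% of all genes. For lower values in D2 the share of all genes was 8.26% and for higher values 2.57%. Ptgs2, Prg4 and Hmcn1 were the 3 members whose strains did not overlap, as in 1.18% of all genes. Ptgs2 and Prg4 were among the 0.874% with all D2 values below all B6 values, and Hmcn1 among the 0.306% with all above. In a fit of single probesets, 13 of the 14 kept ones of Ptgs2, 7 of 11 of Prg4, 31 of 97 of Hmcn1, 2 of 4 of Ptgs2os and 0 of 13 of Pla2g4a passed, as did 3.91% of all kept probesets. Nothing is read from these counts, because the same contrast chose the members. Pla2g4a did not pass without the filter, with it at the 75th percentile, with arrays centred, with the array median as covariate, on letter A arrays alone or without D2 arrays 13, 14 and 19. The other members with a value passed under each of these settings, and on the 4 letter B arrays alone only Ptgs2 did. Without the filter Ptgs2 differed by -1.47, Prg4 by -1.0 and Hmcn1 by 0.58.

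**Figure D1:**
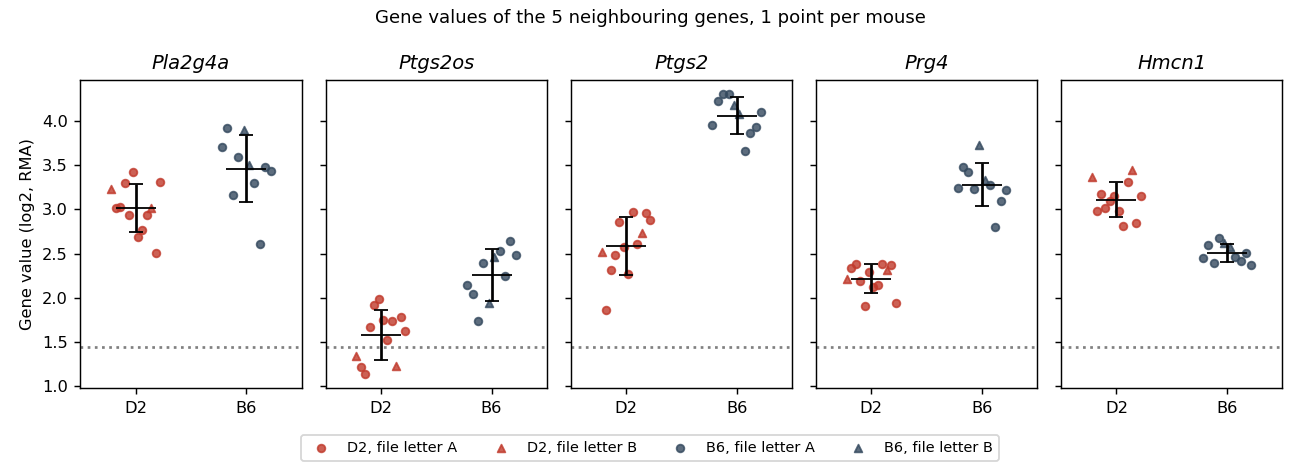
Gene values (log2) of the 5 members in each mouse, with D2 (n = 12) left of B6 (n = 10) for each gene; points are mice (triangles for file letter B), bars are the mean with its SD and the dotted line is the filter at 1.44. D2 and B6 mice do not overlap in Ptgs2, Prg4 and Hmcn1 and do overlap in Pla2g4a and Ptgs2os.

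**Figure D2:**
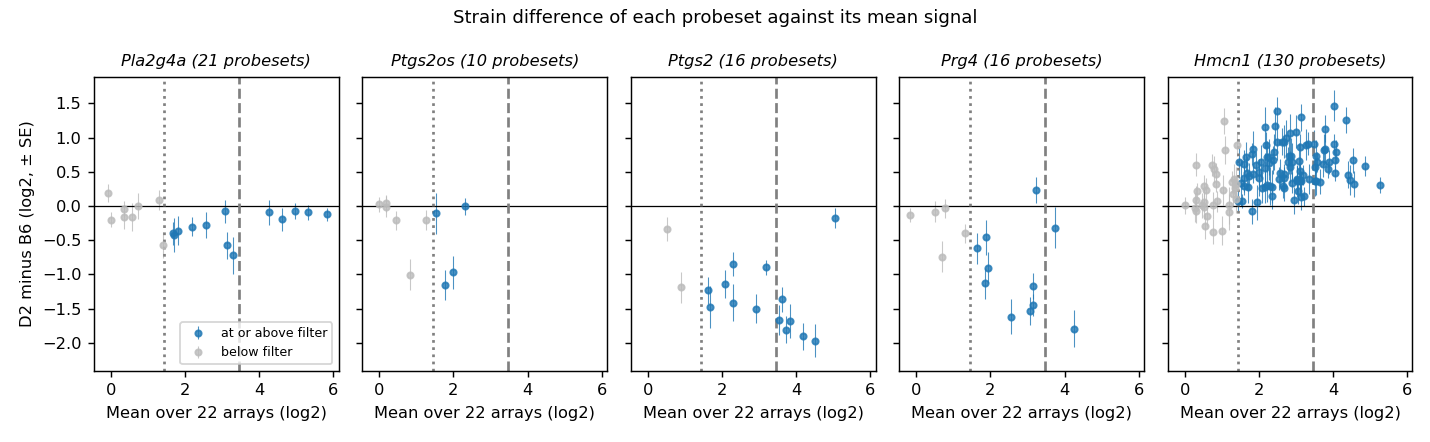
Difference of each probeset (log2, D2 minus B6) against its mean over the 22 arrays (log2), by gene, with its SE; grey points lie under the filter (dotted line, 1.44) and the dashed line is the 75th percentile (3.46). The probesets of Ptgs2 lie below 0 down to -1.97 with the brightest at -0.18, those of Pla2g4a come close to 0 at high signal, and 96 of the 97 kept probesets of Hmcn1 lie above 0. Some of these 97 passed the filter only through their D2 signal.

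The ends of the run were described with the nearest 8 genes on each side that had a gene value. Beyond Pla2g4a, 0 of the 8 passed limma's test (1 at an unadjusted p under 0.05, and Ro60 at an adjusted p of 0.0513). Brinp3, the nearest, was at 5.53 ± 0.24 in D2 and 5.58 ± 0.24 in B6 (SD), and Rgs2, a regulator of G-protein signalling, differed by 0.05. Gm5835 (0.08), Cdc73 (-0.17), B3galt2 (-0.27), Glrx2 (-0.03), Ro60 (-0.22) and Uchl5 (-0.27) did not pass the test either. Calls did appear on this side under other settings, for Ro60 at the 75th percentile (limma adjusted p = 0.0435), with the mean over probesets (0.0169) and with the letter as block (0.0284), and for Brinp3 at the 75th percentile (-0.27, 0.0131). Beyond Hmcn1, 2 of the 8 passed, both lower in D2, against 8.26% of all genes. Trmt1l, a relative of tRNA methyltransferase genes, fell to 5.0 ± 0.21 in D2, against 5.36 ± 0.16 in B6 (SD, -0.36 ± 0.086, SE, limma adjusted p = 0.00716). Ivns1abp, a kelch-repeat protein gene, fell to 7.75 ± 0.13 in D2, against 7.98 ± 0.12 in B6 (-0.22 ± 0.067, SE, limma adjusted p = 0.0310). Both calls were lost with the array median as covariate and on the 4 letter B arrays alone. The Ivns1abp call was lost besides at the 75th percentile (0.0610), with the mean over probesets (0.102), with centring (0.214), on letter A arrays alone (0.0517) and without D2 arrays 13, 14 and 19 (0.0717), while Trmt1l kept its call under these. C730036E19Rik (0.12), 3110040M04Rik (-0.11), Swt1 (-0.29), Rnf2 (0.07), Niban1 (-0.11) and Edem3 (-0.12) did not pass the test. The run was bounded with these results known.

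Between the members the gene table listed 12 other genes, of which 3 code for proteins, and none had a gene value. Pdc, the phosducin gene of photoreceptors and pineal cells, had 1 kept probeset, at 3.76 ± 0.77 in D2 and 3.87 ± 0.40 in B6. The pseudogene Ska2l-ps, between Prg4 and Hmcn1, had 1 kept probeset, at 4.49 ± 0.33 in D2 and 5.04 ± 0.40 in B6, a difference of -0.54 ± 0.15 (SE) against the direction of Hmcn1. The noncoding RNA 2310030A07Rik had 1 as well, at 2.55 ± 0.31 in D2 and 2.42 ± 0.53 in B6. Odr4 and Tpr were not analysed here.

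**Figure D3:**
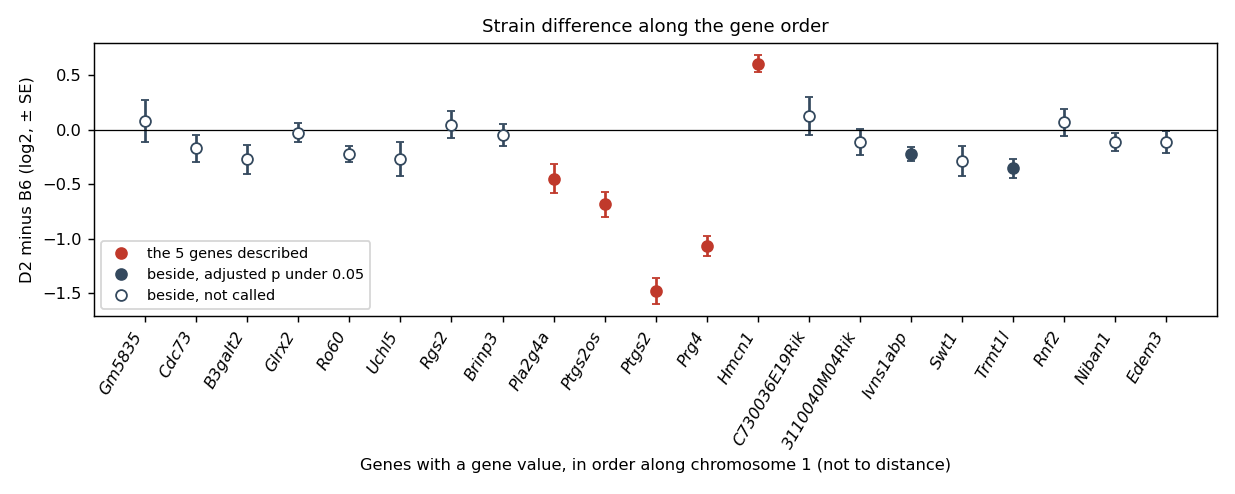
Difference of the gene value (log2, D2 minus B6, with its SE) for the 5 members and the 8 genes on either side, in their order along chromosome 1 but not to distance. Pla2g4a, Ptgs2os, Ptgs2 and Prg4 lie below 0 and Hmcn1 above, and of the 16 genes beside them only Trmt1l and Ivns1abp passed limma's test.

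The rest of the eicosanoid pathway showed no common direction. Of 19 other genes of arachidonate release, 2 rose in D2, 1 fell and 16 did not pass the test, with a median difference of 0.02 against -0.05 over all genes tested. Pla2g4e, a paralog of Pla2g4a on another chromosome that acts as an N-acyltransferase in the making of endocannabinoid precursors, had 4.14, 4.59 and 4.85 in D2 and 2.83, 3.31 and 3.72 in B6. Its strains did not overlap, and it rose by 1.25 ± 0.093 (SE, 2.39-fold, limma adjusted p = 1.5e-10), opposite in sign to Pla2g4a. Pla2g4d, another paralog, rose by 0.31 ± 0.095 (adjusted p = 0.0329), and the phospholipase gene Plaat3 fell by 0.37 ± 0.098 (adjusted p = 0.0138), both by limma. Without the dim filter Pla2g4d was at 0.048 ± 0.084 (SE, adjusted p = 0.797) and Plaat3 at -0.26 (0.132), and Plaat3 lost its call without D2 arrays 13, 14 and 19 too (0.0748).

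Of 10 genes of prostanoid synthesis other than Ptgs2, 1 fell and 9 did not pass the test. Ptgds, the abundant brain prostaglandin D synthase, fell to 8.64 ± 0.35 in D2, against 9.20 ± 0.22 in B6 (SD, -0.56 ± 0.12, SE, limma adjusted p = 0.00316). Ptgds is made by leptomeninges and choroid plexus, among other cells. Of the 6 choroid plexus markers 2 fell in D2 (Folr1 by 0.61 and Otx2 by 0.49), and the mean level of the 6 ran from 4.68 to 5.05 in D2 and from 5.0 to 5.42 in B6. The part of these cells in the Ptgds difference was not tested. None of the 9 prostanoid receptors passed the test (0 at an unadjusted p under 0.05 as well), with Ptgdr2 at 0.31 ± 0.17 and Ptger3 at -0.31 ± 0.17 (SE) the farthest from 0.

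Of 7 genes of prostanoid transport and inactivation, 1 fell and 6 did not pass. Hpgd, the dehydrogenase that begins the breakdown of prostaglandins, had 2.85, 3.44 and 3.62 in D2 and 3.79, 4.32 and 4.69 in B6. Its strains did not overlap, and it fell by 0.88 ± 0.12 in D2 (SE, limma adjusted p = 9.8e-06). Of 12 lipoxygenase and leukotriene genes, 1 rose, 2 fell and 9 did not pass. The epidermal-type lipoxygenase gene Alox12e rose by 0.65 ± 0.10 (limma adjusted p = 8.6e-05). Ephx2, the soluble epoxide hydrolase gene, fell by 0.60 ± 0.11 (limma adjusted p = 0.000526), and Aloxe3 fell by 0.39 ± 0.099 (0.0108, but 0.0780 on letter A arrays alone).

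Regulators of Ptgs2 and other early genes were examined as separate lists. Of 11 transcription factors, mRNA-binding proteins and cytokine signals that act on Ptgs2, 0 passed limma's test (1 at an unadjusted p under 0.05). Calls did appear in this list under other settings. With the mean over probesets 2 fell, and 1 fell with the letter as block or on letter A arrays alone. Without the filter 1 of 12 rose. Zfp36, whose protein speeds the decay of AU-rich mRNAs, was at -0.37 ± 0.18 (SE), and the interleukin-1 receptor gene Il1r1 at -0.36 ± 0.12 (adjusted p = 0.0508). Ptgs2 is itself an activity-regulated early gene of neurons, and of 14 other immediate early genes 4 fell and 10 did not pass, with a median of -0.23. Ier2 fell by 0.81 ± 0.22 (adjusted p = 0.0171), Arc by 0.66 ± 0.13 (0.00119), Egr3 by 0.61 ± 0.14 (0.00610) and Egr4 by 0.58 ± 0.14 (0.00787), all by limma. With the mean over probesets Ier2 was at -0.31 (adjusted p = 0.140) and Egr4 at -0.17 (0.255), and Egr4 turned to 0.13 with the filter at the 75th percentile. Ier2 also lost its call on letter A arrays alone (0.0632) and without D2 arrays 13, 14 and 19 (0.0577).

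Relatives of the matrix members were examined in the same way. Of 14 genes of the hemicentin and fibulin group and basement membrane, 0 rose and 4 fell, beside 2.57% and 8.26% of all genes. The falls ran against the direction of Hmcn1, and the list median was -0.10. Under some settings 1 gene of this list rose. The rises and falls were 1 and 3 at the 75th percentile or with centring. They were 1 and 6 with the mean over probesets, and 1 and 4 with the letter as block. Fbln7 fell by 0.67 ± 0.14 (limma adjusted p = 0.00284) but was at 0.24 with the filter at the 75th percentile. Efemp1, a fibulin gene, fell by 0.52 ± 0.12 (0.00473), the laminin gene Lama2 by 0.38 ± 0.073 (0.000632) and Vwa1 by 0.33 ± 0.088 (0.0149), in the same fit. Vwa1 lost its call with centring (0.0985) and, at -0.15, with the filter at the 75th percentile (0.334). Of 10 relatives and receptors of Prg4 and hyaluronan genes, 2 rose and 2 fell, a balance that depended on the setting. It was 0 and 1 without the filter, 0 and 3 at the 75th percentile, 3 and 0 with centring or on letter A arrays alone, and 2 and 0 without D2 arrays 13, 14 and 19. The plasma matrix protein gene Vtn fell by 0.37 ± 0.11 (limma adjusted p = 0.0329) and the hyaluronan synthase gene Has3 by 0.31 ± 0.10 (0.0490). Has3 lost its call without the filter (-0.14, 0.393), with the mean over probesets (0.0830), with centring (0.161), on letter A arrays alone (0.179) and without D2 arrays 13, 14 and 19 (0.0837). Vtn lost its own with centring (0.0736), on letter A arrays alone (0.0655) and without those 3 arrays (0.0779). Has1 rose by 0.25 ± 0.074 (0.0256, but 0.348 without the filter), and Sbspon rose by 0.35 ± 0.11 (0.0315) but was at -0.71 ± 0.15 with the filter at the 75th percentile.

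Over the 9 lists, 5 of 106 measured genes rose and 15 fell, so that 18.9% passed the test beside 10.8% of all genes, with medians of -0.05 for both. With the array median as covariate only Pla2g4e of these 20 genes kept its call, on the 4 letter B arrays alone only Hpgd did, and 17 did once arrays were centred on the median of their gene values. Among all calls 76.3% were lower in D2, against 42.5% with that centring, which moved the median of all genes from -0.05 to 0.05.

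**Figure D4:**
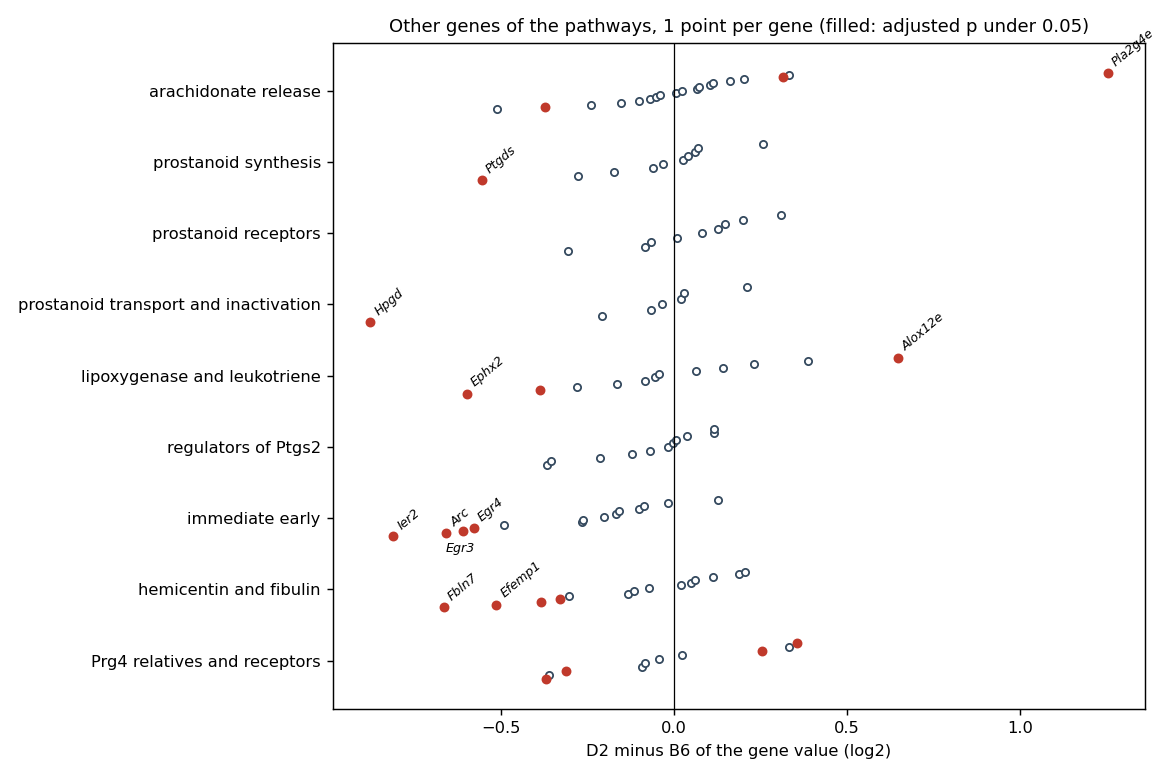
Difference of the gene value (log2, D2 minus B6) of the 106 measured genes in 9 lists, 1 point per gene, filled where limma's adjusted p was under 0.05. Pla2g4e lies far to the right at 1.25 and Hpgd farthest to the left at -0.88.

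Neuronal and glial markers were measured in both strains. The mean level of 4 measured neuronal markers ran from 9.02 to 9.34 in D2 and from 9.07 to 9.37 in B6, with none called. The mean level of 4 astrocyte markers ran from 7.75 to 8.04 in D2 and from 7.92 to 8.08 in B6, with Aldoc lower in D2 (-0.25), and that of 3 oligodendrocyte markers from 7.32 to 7.90 in D2 and from 7.54 to 7.83 in B6, with none called. Single arrays stood far apart in 2 measured pituitary markers, whose mean ran from 1.80 to 8.81 in D2 and from 1.78 to 6.01 in B6, with none called. The part of pituitary tissue in the members' differences was not tested. Cells of brain coverings and vessels are a source of matrix transcripts, and their markers stood as follows. The mean level of 7 meningeal fibroblast markers ran from 4.45 to 4.91 in D2 and from 4.48 to 4.89 in B6, with Col3a1 higher (0.37) and Ogn lower (-0.49) in D2. The mean of 3 endothelial markers ran from 4.61 to 5.13 in D2 and from 4.90 to 5.38 in B6, with Pecam1 (-0.33) and Slco1a4 (-0.41) lower. No marker has a true zero on an array, and the part of these cells in the differences of Prg4 and Hmcn1 was not tested. The medians of the single arrays over all probesets lay between 1.41 and 1.51.

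Within a strain, where mice are genetically alike, no pair of members passed the test of a correlation after adjustment. Among 22 relations (10 pairs of members in each strain, and Ptgs2 against the mean of the immediate early genes) 0 passed a two-sided permutation test after Benjamini-Hochberg adjustment, and 2 had an unadjusted p under 0.05 for Pearson's r and 1 for Spearman's rho. In the 12 D2 mice r of the pairs ran from -0.38 to 0.49, and in the 10 B6 mice from -0.55 to 0.76. The highest was Pla2g4a with Prg4 in B6 (r = 0.76, rho = 0.54, permutation p = 0.0176 and 0.114, adjusted p = 0.387 and 0.494), and without the 2 mice farthest from the median of Pla2g4a r was 0.40. Ptgs2os and Ptgs2, which start beside each other, had an r of 0.43 in D2 (rho = 0.31, permutation p = 0.162 and 0.318, adjusted p = 0.440 and 0.600) and -0.55 in B6 (rho = -0.64, permutation p = 0.0975 and 0.0550, adjusted p = 0.440 and 0.452). Without the 2 mice farthest from the median of Ptgs2os these became -0.03 and -0.32. Ptgs2 with the mean of the immediate early genes had an r of 0.18 in D2 (permutation p = 0.552, adjusted p = 0.771) and 0.41 in B6 (permutation p = 0.238, adjusted p = 0.440), with a rho of 0.23 and 0.41, and 0.47 and 0.66 without the 2 farthest mice.

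The genes whose values followed each member most closely were found after each strain was centred on its own mean, over 22 arrays and 16015 other genes. These r values are a description, share the arrays' overall signal and carry no test. For Ptgs2 the 5 highest were Scn1a (r = 0.87), Abcd2 (0.85), Zfp454 (0.85), Tank (0.84) and Foxq1 (0.83), where 95% of all genes lay under 0.60 in size. For Hmcn1 they were Herc2 (0.86), Smc5 (0.85), Macf1 (0.83), Cfhr3 (0.82) and Pcdh15 (0.82), against 0.61. For Prg4 they were Dcbld2 (0.80), Pfdn4 (0.77), Haus1 (0.77), Bcl2l2 (0.77) and Enkur (0.77), against 0.54. For Pla2g4a they were Nol7 (0.73), Pde1c (0.73), Grpr (0.69), Adgrf2 (0.68) and Lrrfip1 (0.67), against 0.48. For Ptgs2os they were Lrrc71 (0.73), Top2a (0.67), Myh6 (0.67), Trav16 (0.65) and Tcam1 (0.65), against 0.42. No member stood among the 5 of another.

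The array files carry a letter, A on 18 arrays and B on 4 (2 of each strain), whose meaning the labels do not state. In a limma fit with strain as a term, 0 of the 5 members passed the threshold between the letters, beside 14.8% of all genes. Among 5 genes this 0 is not read as an absence of difference, and 1 member had an unadjusted p under 0.05. That was Hmcn1, 0.24 ± 0.087 higher on letter B (SE, limma adjusted p = 0.0696). It lay at 3.41 on the 2 letter B arrays and 3.05 on the 10 letter A arrays of D2, and at 2.59 and 2.49 on those of B6. Within letter A alone the D2 minus B6 difference was -1.47 for Ptgs2, -1.01 for Prg4, -0.64 for Ptgs2os, -0.41 for Pla2g4a and 0.57 for Hmcn1. Within letter B alone it was -1.51, -1.27, -0.92, -0.58 and 0.82 for the same genes. In a fit of the strain by letter interaction 0 of 16016 genes passed, and the members' unadjusted p ran from 0.158 to 0.900.

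**Figure D5:**
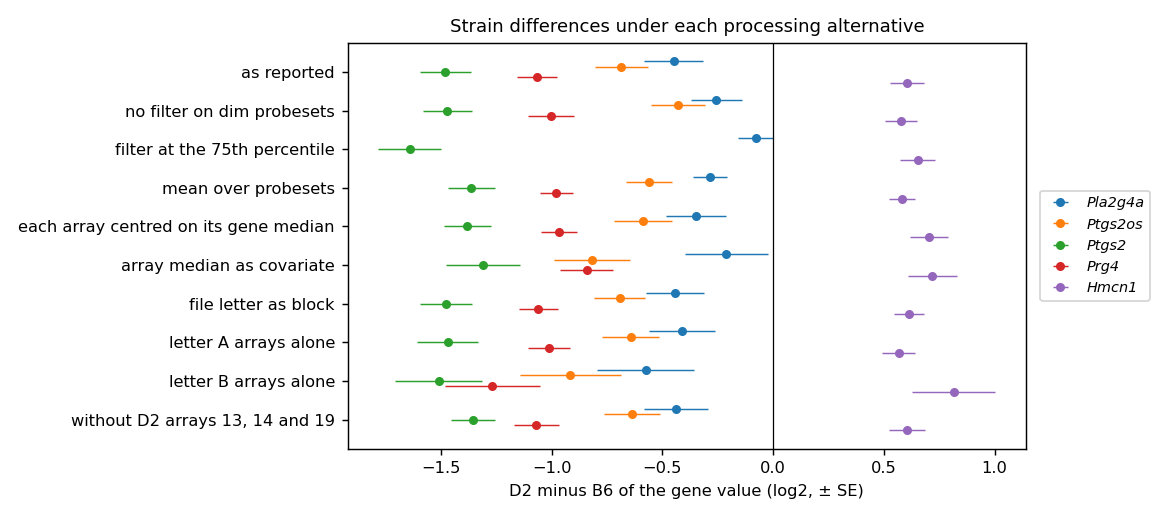
Difference of the gene value (log2, D2 minus B6) of each member with its SE, under each way of processing the arrays; Ptgs2os and Prg4 have no value with the filter at the 75th percentile. Each member keeps its side of 0, Ptgs2 between -1.64 and -1.31 and Pla2g4a between -0.58 and -0.078, the latter with an SE of 0.080.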

How the data were processed

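Total RNA of whole brains of 12 D2 and 10 B6 mice was hybridised to 1 array per mouse. Per the labels, 24 arrays were run and 2 read on another scanner were left out by the authors. The deposited values are log2 expression made by the authors with RMA (affy 1.12.2, R 2.6.0, per the submitters' processing notes), which corrects background, equalizes array distributions and fits 1 value per probeset. RMA's options, the probeset definition and the genome build are not given in the sources used here. Precision is limited by how many arrays each strain has, since arrays carry no sequencing depth.

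Of 1201338 probesets 10932 were empty and left out. Probesets with 1 platform symbol (311384) were named, with 3990 of 22276 symbols updated to current ones. A probeset was kept if its mean over the arrays reached the table-wide median (1.44), and genes with at least 3 kept probesets were given their median per array (16016 genes). Genes were fitted with limma 3.58.1 in R 4.3.3 (lmFit, eBayes, Benjamini-Hochberg over all genes, adjusted p under 0.05). Differences of members are given with SE and no p, and whether a member passed the limma threshold is given as a description only. Correlations used 100000 permutations drawn in numpy 2.4.6, with ranks from scipy 1.17.1. Where only 8 mice remained, all orders were enumerated instead. RefSeq promoters matched 4 of 5 members, without Prg4.

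Tested on simulated data for D2 against B6 over 16016 genes, the fit recovered 10%, 66%, 98% and 100% of 50 genes changed by 0.25, 0.5, 1 and 2 (log2), and 12 of 149 calls were false. The simulated noise was drawn independently for each gene and array, without the overall signal that real arrays share. These rates may therefore not hold for the real arrays. The members and lists were chosen with earlier results of these data known. Named genes are the members, the 8 genes on either side, per list the called genes (up to the 6 largest) or the 2 largest where none was called, and the 5 most alike genes per member. Alternatives were the dim filter, the mean over probesets, array centring, the array median as covariate, the file letter and arrays left out.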

Additional observations from a re-analysis of the deposited data

How the results depend on the processing

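All 5 members kept their direction under each alternative that gave a value. They were chosen on this contrast and the alternatives reuse the same arrays, so this is a description and no independent support. The Pla2g4a difference was no larger than its SE at the 75th percentile (-0.078 ± 0.080). With the array median as covariate it was -0.21 ± 0.19 (SE). The sizes that moved beyond the spread between mice were Pla2g4a at -0.078 under a dim filter at the 75th percentile, Prg4 at -0.84 with the array median as covariate and Hmcn1 at 0.82 on letter B arrays alone. At the 75th percentile Ptgs2os and Prg4 had too few probesets for a value. Of all genes 1735 were called, but 2718 with the mean over probesets, 495 with the covariate and 75 on letter B arrays alone. Of the pathway genes 20 were called, but 1 with the covariate and 2 on letter B arrays alone. Of the 16 genes beside the run 2 were called, but 4 under the filter at the 75th percentile (Ro60, Brinp3, Swt1 and Trmt1l), 0 with the covariate or on letter B arrays alone, and 1 with centring, on letter A arrays alone or without D2 arrays 13, 14 and 19. The letter called 0 members, but 1 (Hmcn1) with centring. Sbspon turned to -0.067 without the filter, -0.71 at the 75th percentile, -0.15 with the mean and -0.18 on letter B arrays alone. At the 75th percentile Egr4 turned to 0.13 and Fbln7 to 0.24. The cause of these changes was not tested. No correlation among members was called under any alternative run. No paired analysis was possible, because each array held RNA of a different mouse and no label pairs a D2 mouse with a B6 mouse. The signal of Ptgs2os in D2 lies near the filter level of 1.44, and no background measure was used here.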
